A study of Homo sapiens with 12 samples.

Results

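Mucins, trefoil factors and CEACAMs are products of secretory and glandular epithelium, and 10 of their genes were followed here across a knockdown of focal adhesion kinase (FAK) in pancreatic ductal adenocarcinoma (PDAC) cells. The genes are MUC1, MUC4, MUC13, MUC16, MUC20, TFF1, TFF2, TFF3, CEACAM5 and CEACAM6. Every row of the expression table that carried one of these names was taken, which gave 10 of 34599 gene names and 16 of 47228 probes. MUC4 had 5 probes, MUC1 had 3, and each of the other genes had 1. The arrays were Illumina HumanHT-12 v4 bead arrays, on which each bead type reports the brightness of 1 short probe, and the cells were the human PDAC lines MIA PaCa-2 and Capan-1. The 6 groups were each line with a scrambled hairpin as control (shCtrl), with sh1209 or with sh1319, the latter 2 directed against FAK, with 2 arrays in each group and 12 arrays in all on 1 chip. In the Capan-1 labels the latter hairpin is spelled shFAK1319, and it was read as sh1319. Whether the hairpin lines were pools or single clones is not given in the labels. All groups, controls included, carried the PLKO.1 tet-on hairpin backbone, were kept under puromycin (3.5 µg/ml for MIA PaCa-2 and 1.5 µg/ml for Capan-1) and were induced for 96 hours with doxycycline at 50 ng/ml, and 500 ng of RNA was used per array. Whether replicate arrays stem from separate cultures is not given in the labels, so p-values measure only the spread between these arrays, which may be technical.

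Mucins are large proteins densely covered with O-linked sugars. MUC1, MUC4, MUC13, MUC16 and MUC20 are anchored in the cell membrane, where they shield the surface and can take part in signaling, and others such as MUC5AC are secreted to form gel. Trefoil factors are small, disulfide-rich peptides that are secreted along with gel-forming mucins and are known for their role in repair of the gastrointestinal lining. CEACAMs are immunoglobulin-like adhesion molecules of the cell surface, and CEACAM5 is the carcinoembryonic antigen used as a serum tumor marker. Several of these genes are commonly raised in PDAC.

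FAK is encoded by PTK2, and its brighter probe (450253) fell with both hairpins in both lines. The log2 change was -2.24 (adjusted p = 1.5e-07, limma) with sh1209 and -2.48 (adjusted p = 5.2e-08) with sh1319 in MIA PaCa-2, and -0.61 (adjusted p = 0.0036) and -1.78 (adjusted p = 5.9e-06) in Capan-1. The weakest of these, sh1209 in Capan-1, was -0.42 (adjusted p = 0.23) when arrays were scaled to a common median in place of quantile normalization. The dimmer PTK2 probe (2680750) did not pass the threshold in any of the 4 pairs. Between 16259 and 19814 probes were detected per array (detection p under 0.05), and the arrays of a group correlated at 0.991 to 0.994 across probes. All 6 epithelial marker genes (EPCAM, CDH1, KRT7, KRT8, KRT18 and KRT19) were detected on all Capan-1 arrays, while in MIA PaCa-2 only KRT8 and KRT18 were. Of the mesenchymal marker list (4 genes, 7 probes), 2 VIM probes were detected on all MIA PaCa-2 arrays, and CDH2 and 1 VIM probe on all Capan-1 arrays. The summed background-corrected intensity of that list in Capan-1 was 92.4 to 102 with shCtrl, 150 to 216 with sh1209 and 224 to 284 with sh1319, against 15829 to 20756 over the MIA PaCa-2 arrays. The epithelial list summed to 10890 to 11574, 10428 to 14237 and 8914 to 12814 in Capan-1, and to 1771 to 1910, 1214 to 1371 and 867 to 994 in MIA PaCa-2. With sh1209 and sh1319 in Capan-1, CDH2 rose by 0.75 and 1.29 and KRT7 fell by 0.40 and 0.54, CDH1 rose by 0.63 with sh1209, and VIM rose by 0.47 on 1 of 2 tested probes with sh1319. In MIA PaCa-2, KRT19 fell by 1.44 with sh1209 and by 1.47 with sh1319. With sh1319 in that line, KRT8 fell by 1.09, KRT18 fell by 0.80 on probe 110431 alone, and KRT7 rose by 0.43. The part of these marker changes in the members' changes was not tested. No leukocyte, endothelial or fibroblast marker probe was detected on all 6 arrays of either line.

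The promoters of 4 members are shown because MUC1, MUC13 and CEACAM6 moved with one hairpin or the other in Capan-1, and because CEACAM5, the neighbor of CEACAM6, gives the contrast to it. Each run holds the 250 bases before the annotated start of the gene, read 5′ to 3′ on the gene's strand, from RefSeq on GRCh38.p14. Entries were found for 6 of the 10 members. MUC20, TFF1 and TFF3 also moved in Capan-1 but, like TFF2, had no entry and are not shown. The letters in capitals are matches to 6 motifs searched on both strands, namely the TATA box (TATAAA), the GC box (GGGCGG), the CCAAT box (CCAAT), the AP-1 site (TGANTCA), the STAT site (TTCNNNGAA) and a forkhead site (TGTTTAC).
MUC1, chr1:155192916-155193165, minus strand: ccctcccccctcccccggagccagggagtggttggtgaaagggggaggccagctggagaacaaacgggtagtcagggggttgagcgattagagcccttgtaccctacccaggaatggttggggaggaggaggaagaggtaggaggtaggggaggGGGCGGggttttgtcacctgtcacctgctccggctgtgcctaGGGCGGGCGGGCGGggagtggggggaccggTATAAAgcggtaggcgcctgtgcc
MUC13, chr3:124934752-124935001, minus strand: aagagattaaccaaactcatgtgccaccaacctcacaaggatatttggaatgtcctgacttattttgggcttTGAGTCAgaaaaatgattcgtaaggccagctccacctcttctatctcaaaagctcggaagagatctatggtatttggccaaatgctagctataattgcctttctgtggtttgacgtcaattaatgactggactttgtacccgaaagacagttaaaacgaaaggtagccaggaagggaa
CEACAM5, chr19:41708376-41708625, plus strand: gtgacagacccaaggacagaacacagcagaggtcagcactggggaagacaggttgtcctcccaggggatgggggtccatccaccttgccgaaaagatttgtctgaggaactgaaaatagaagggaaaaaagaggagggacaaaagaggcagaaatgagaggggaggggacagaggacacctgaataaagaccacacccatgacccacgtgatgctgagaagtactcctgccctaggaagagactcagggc
CEACAM6, chr19:41755280-41755529, plus strand: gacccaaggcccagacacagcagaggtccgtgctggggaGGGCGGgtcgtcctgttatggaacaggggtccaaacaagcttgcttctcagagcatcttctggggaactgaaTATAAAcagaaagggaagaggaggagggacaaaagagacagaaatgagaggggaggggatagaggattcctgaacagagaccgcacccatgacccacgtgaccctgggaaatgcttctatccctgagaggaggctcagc

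The MUC1 window held a TATA box at -24 to -19 from the start and 4 GC boxes, of which the 3 nearest to the start overlap one another by 2 bases. MUC13 held 1 AP-1 match, at -178 to -172, where the motif as searched matched on both strands. CEACAM6 held a GC box at -211 to -206 and a TATA box at -139 to -134. CEACAM5 held no match to these letters in this window. Of 35116 promoter windows of the same length, 10.7% held the TATA box, 42.6% the GC box, 32.0% the CCAAT box, 6.57% the AP-1 site, 6.57% the STAT site and 2.98% the forkhead site. The windows of CEACAM5 and CEACAM6 could be aligned with 190 identical bases, or 76.0% of the 250, against 44.4% to 52.0% for the other pairs. A match is a description of the letters and not a bound site.

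The members were products of Capan-1 and were mostly below detection in MIA PaCa-2. In Capan-1, 11 probes covering 9 of the 10 genes were detected on all 6 arrays, and MUC16 was the gene left out. In MIA PaCa-2, only MUC1 probe 7650026 was detected on all 6 arrays. With shCtrl, 11 of the 14 member probes that passed the detection filter were higher in Capan-1, in 9 genes, and 0 were lower. Over all tested probes, 19.6% were higher and 22.5% lower in that comparison. The median difference of the 14 probes was 2.33 on the log2 scale, against -0.04 over all tested probes. Most of the 14 were detected in Capan-1 alone and passed the filter through that line, so they could hardly be lower there. The count and the median therefore describe the members and do not test a direction. The cells are measured in bulk, so fewer cells that express a gene and less RNA per cell cannot be told apart.

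**Figure D1:**
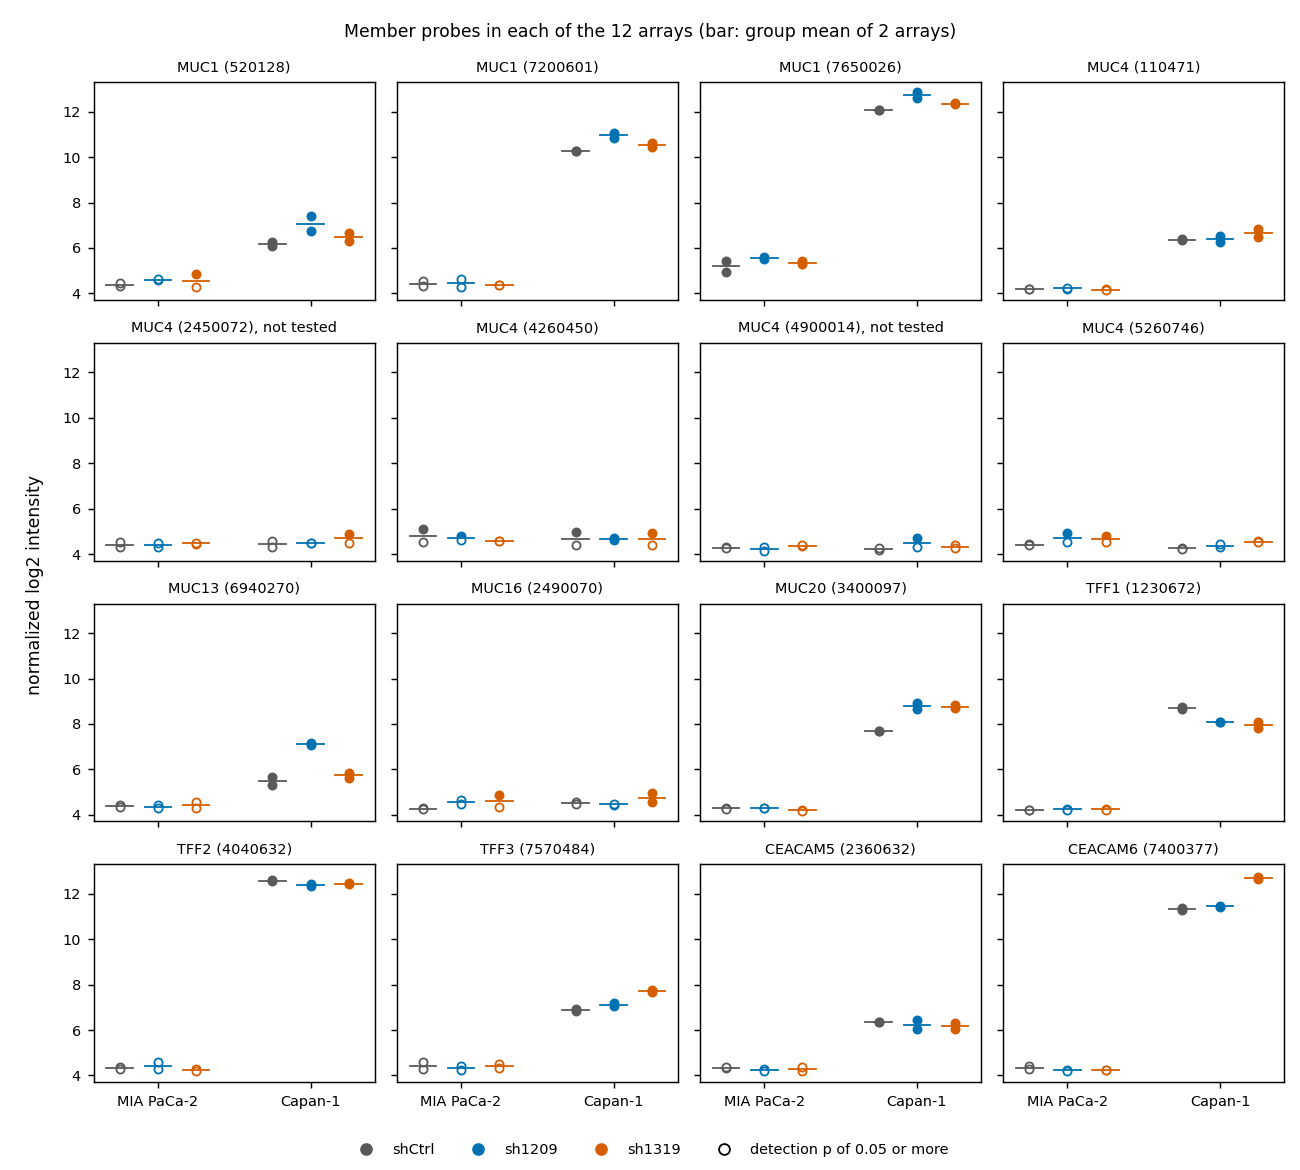
Normalized log2 intensity of each member probe (1 panel per probe) in each of the 12 arrays, with cell line on the horizontal axis, hairpins in color and bars at the mean of the 2 arrays of a group. Open points were not detected (detection p of 0.05 or more). The Capan-1 points lie well above the MIA PaCa-2 points for 11 probes, MUC13 is high only with sh1209 and CEACAM6 is highest with sh1319.

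Where a probe was not detected in either shCtrl array of MIA PaCa-2, only a lower bound of the fold can be given, taken against the lowest normalized signal of a detected probe in each array, or the probe's own where that was higher. TFF2 (probe 4040632), a trefoil peptide of gastric mucous cells, read 12.62 and 12.55 in the shCtrl arrays of Capan-1 and 4.39 and 4.29 in those of MIA PaCa-2 on the normalized log2 scale. It was at least 235-fold higher in Capan-1 (adjusted p = 9.4e-13, limma). CEACAM6 (probe 7400377), a lipid-anchored adhesion molecule, read 11.37 and 11.30 against 4.40 and 4.28, at least 98.8-fold higher (adjusted p = 9.4e-13). In both genes the 2 cell lines were far apart and the arrays of each line close together. TFF1 (probe 1230672), the other gastric trefoil peptide, was at least 15.9-fold higher, and MUC20 (probe 3400097), a membrane mucin, at least 7.97-fold. The bound was 4.55-fold for TFF3 (probe 7570484), the intestinal trefoil peptide, 3.17-fold for MUC4 probe 110471, 3.11-fold for CEACAM5 (probe 2360632) and 1.70-fold for MUC13 (probe 6940270). All of these, and the MUC1 probes, passed the threshold in limma's fit. The p-values belong to the difference between the normalized readings and not to the bound. Probes detected in Capan-1 alone passed the filter through that line, so their p-values do not test a direction.

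MUC1 could be compared directly through its brightest probe, which was detected in both lines. Probe 7650026 read 12.08 and 12.06 in Capan-1 and 5.44 and 4.95 in MIA PaCa-2 with shCtrl, a difference of 6.87 ± 0.16 (SE) on the log2 scale, or 117-fold. The other MUC1 probes were higher by at least 47.1-fold (7200601) and at least 2.74-fold (520128). All 3 MUC1 probes thus gave the same direction, with sizes that differed between probes. MUC16, which carries the CA125 antigen, was detected on 3 of 12 arrays and on no shCtrl array of either line, so it gave no level to compare between the lines. The 4 MUC4 probes other than 110471 were detected on 1, 1, 2 and 6 of the 12 arrays. MUC4 probes 2450072 and 4900014 did not pass the filter and were not tested, and they read between 4.15 and 4.89 on all arrays. MUC4 probe 5260746 was not detected on any shCtrl array and probe 4260450 on 1 in each line, so neither gave a difference between the lines to set beside that of probe 110471.

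In MIA PaCa-2, none of the 14 probes passed limma's adjusted threshold with either hairpin. Beside sh1209, 9.05% of all tested probes rose and 8.99% fell, and beside sh1319 12.2% rose and 12.1% fell. At an unadjusted p under 0.05, limma called 1 member probe with sh1209 (MUC1 probe 7650026) and 0 with sh1319, and the methods' t-test 0 with sh1209 and 1 with sh1319 (MUC20). MUC1 probe 7650026 read 5.44 and 4.95 with shCtrl, 5.58 and 5.52 with sh1209 and 5.41 and 5.29 with sh1319. Its log2 change with sh1209 was 0.36 (95% interval 0.01 to 0.70, adjusted p = 0.16), and without shCtrl replicate 1 it was 0.60 (adjusted p = 0.025). MUC16 had a log2 change of 0.35 (adjusted p = 0.18) with sh1319. Without sh1319 replicate 1 the change was 0.61, resting on sh1319 replicate 2, the only MIA PaCa-2 array on which MUC16 was detected. The other members were not detected in MIA PaCa-2 apart from MUC1 probe 520128 on 1 array and MUC4 probes 4260450 and 5260746 on 2 arrays each, so a fall could not be measured there for most of them.

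In Capan-1 the members moved in both directions. With sh1209, 5 probes of 3 genes rose (MUC1, MUC13 and MUC20) and 1 fell (TFF1), against 8.14% of all tested probes that rose and 8.69% that fell. With sh1319, 3 probes rose (MUC20, TFF3 and CEACAM6) and 1 fell (TFF1), against 6.95% and 6.77%. The median log2 change of the 14 probes was 0.11 with sh1209 and 0.28 with sh1319, against -0.01 and 0.00 over all tested probes. The hairpins share the shCtrl arrays of Capan-1, so their changes are not independent of each other. MUC20 and TFF1 passed with both.

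**Figure D2:**
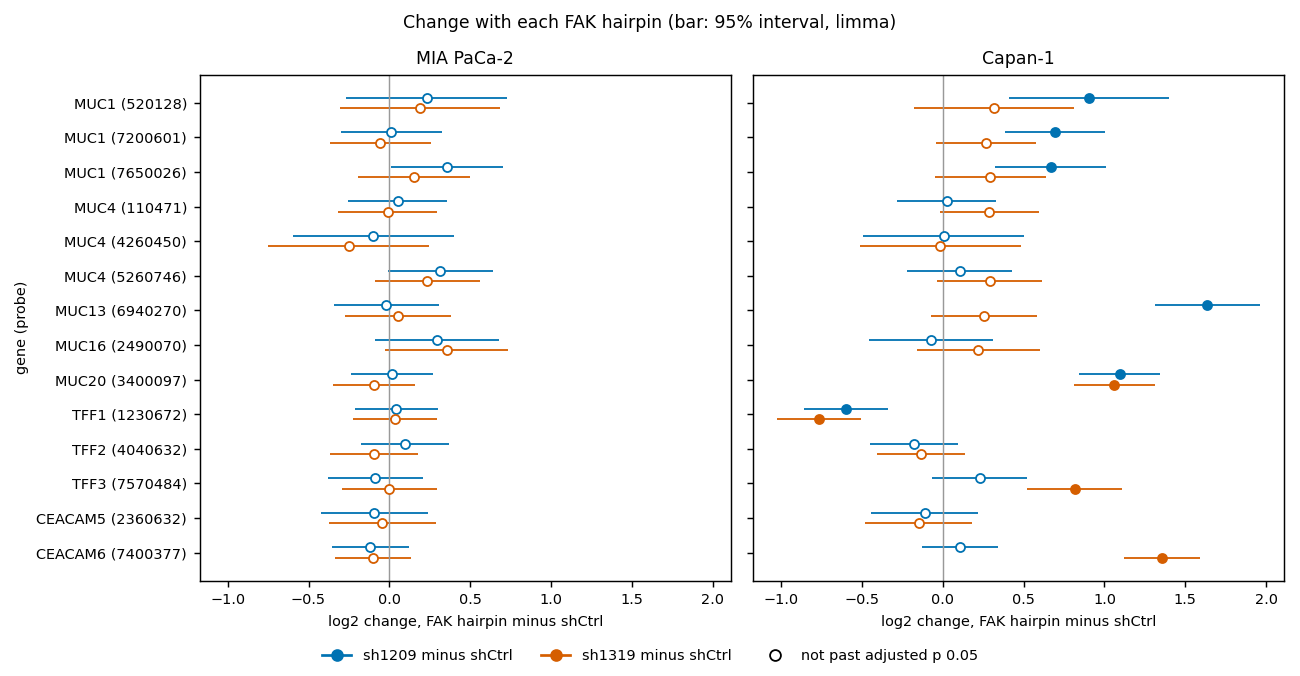
Log2 change of each tested member probe with sh1209 and sh1319 against shCtrl in MIA PaCa-2 (left) and Capan-1 (right), on 1 horizontal scale, with bars for the 95% interval from limma and filled points past an adjusted p of 0.05. All points in MIA PaCa-2 are open, and in Capan-1 MUC13 with sh1209, CEACAM6 with sh1319 and MUC20 with both lie farthest to the right.

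Among the membrane mucins, MUC20 rose with both hairpins by about the same amount. It read 7.71 and 7.70 with shCtrl, 8.68 and 8.92 with sh1209 and 8.71 and 8.82 with sh1319, so the knockdown arrays lay above both controls. The log2 change was 1.09 ± 0.11 (SE; 2.13-fold, adjusted p = 7.4e-05, limma) with sh1209 and 1.06 ± 0.11 (2.09-fold, adjusted p = 0.00016) with sh1319. The difference between the hairpins was -0.03 (95% interval -0.28 to 0.22).

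MUC13, a mucin of the intestinal surface with EGF-like domains, rose with sh1209. It read 5.65 and 5.30 with shCtrl, 7.06 and 7.16 with sh1209 and 5.64 and 5.83 with sh1319. The sh1209 arrays stood clear of the others, while the sh1319 arrays overlapped the controls. The log2 change was 1.64 ± 0.15 (3.11-fold, adjusted p = 2.4e-05) with sh1209 and 0.26 (95% interval -0.07 to 0.58, adjusted p = 0.32) with sh1319.

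MUC1, whose cytoplasmic tail is a known signaling domain, rose with sh1209 on all 3 of its probes. Probe 7650026 read 12.08 and 12.06 with shCtrl, 12.61 and 12.86 with sh1209 and 12.32 and 12.40 with sh1319. Its log2 change was 0.67 ± 0.16 (1.59-fold, adjusted p = 0.013) with sh1209. Both knockdown groups read above the controls on this probe, and the sh1209 arrays were the highest. For probe 7200601 the change with sh1209 was 0.69 (1.62-fold, adjusted p = 0.0061), and for probe 520128 it was 0.90 (1.87-fold, adjusted p = 0.018). With sh1319 the changes were 0.30, 0.27 and 0.32, none past the threshold (adjusted p of 0.28, 0.27 and 0.44). The sh1209 calls changed when 1 array was left out, in which case the group left with 1 array is assumed to vary like the other groups. Without sh1209 replicate 2, which was the higher of the pair on every MUC1 probe, the changes were 0.54, 0.60 and 0.57 (adjusted p of 0.12, 0.062 and 0.17) for probes 7650026, 7200601 and 520128, and 3 of the 6 member calls with sh1209 were left. Without shCtrl replicate 1 or 2, probe 7650026 was at 0.68 and 0.65 (adjusted p of 0.063 and 0.075) and probe 520128 at 0.81 and 1.00 (0.11 and 0.059), which also missed the threshold.

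MUC4, a large membrane mucin that binds ERBB2, did not pass the threshold with either hairpin on any tested probe. Probe 110471, its bright one, read 6.38 and 6.36 with shCtrl, 6.26 and 6.53 with sh1209 and 6.48 and 6.85 with sh1319. The sh1209 arrays lay on both sides of the controls. The log2 changes were 0.02 (95% interval -0.28 to 0.33) and 0.29 (-0.02 to 0.60). MUC16 read between 4.42 and 4.95 on the Capan-1 arrays and was detected there in both sh1319 arrays alone. It did not pass the threshold with either hairpin, and with sh1209 it was below detection on both sides of the comparison.

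The trefoil factors, which are neighbors on chromosome 21, went 3 ways. TFF1 read 8.75 and 8.65 with shCtrl, 8.10 and 8.11 with sh1209 and 8.06 and 7.81 with sh1319. All 4 knockdown arrays lay below both controls. TFF1 fell by 0.60 on the log2 scale (SE 0.12, adjusted p = 0.0049, limma) with sh1209 and fell by 0.77 (SE 0.12, adjusted p = 0.0014) with sh1319. With median scaling the changes were -0.33 (adjusted p = 0.35) and -0.50 (adjusted p = 0.12), the same direction but no longer past the threshold.

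TFF3 read 6.86 and 6.93 with shCtrl, 7.07 and 7.18 with sh1209 and 7.75 and 7.68 with sh1319. The sh1319 arrays were the highest and did not overlap the rest. The log2 change was 0.82 ± 0.13 (1.76-fold, adjusted p = 0.0022) with sh1319 and 0.23 (95% interval -0.07 to 0.52, adjusted p = 0.32) with sh1209. TFF2, the brightest of the trefoil probes, read 12.62 and 12.55 with shCtrl, 12.36 and 12.45 with sh1209 and 12.47 and 12.43 with sh1319. The knockdown arrays were slightly below the controls, with log2 changes of -0.18 (95% interval -0.45 to 0.10) and -0.13 (-0.41 to 0.14) that did not pass the threshold.

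CEACAM6 rose with sh1319. It read 11.37 and 11.30 with shCtrl, 11.45 and 11.44 with sh1209 and 12.72 and 12.65 with sh1319. The sh1319 arrays stood well above the other 4 Capan-1 arrays. The log2 change was 1.35 ± 0.11 (2.56-fold, adjusted p = 2.4e-05) with sh1319 and 0.11 (95% interval -0.13 to 0.34) with sh1209. CEACAM5, the next gene on chromosome 19, read 6.33 and 6.35 with shCtrl, 6.03 and 6.44 with sh1209 and 6.07 and 6.32 with sh1319. The controls lay within the range of the sh1209 arrays and just above the sh1319 arrays. The log2 changes were -0.11 (95% interval -0.44 to 0.22) and -0.15 (-0.48 to 0.18).

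The hairpins were also compared directly. In Capan-1, CEACAM6 and TFF3 were higher and MUC13 lower with sh1319 than with sh1209, against 5.47% of all tested probes that were higher and 5.81% that were lower. The differences were 1.25 ± 0.11 (adjusted p = 2.3e-05, limma) for CEACAM6, -1.38 ± 0.15 (adjusted p = 0.00013) for MUC13 and 0.59 ± 0.13 (adjusted p = 0.016) for TFF3. The TFF3 difference missed the threshold without any 1 of the 4 arrays involved (differences of 0.53 to 0.65, adjusted p from 0.053 to 0.11) and with median scaling (0.55, adjusted p = 0.14). For MUC1 the differences were -0.37, -0.42 and -0.59 on probes 7650026, 7200601 and 520128 (adjusted p of 0.18, 0.08 and 0.14). Without background correction all 3 passed (adjusted p of 0.0031, 0.00097 and 0.025), and MUC1 then also passed with sh1319 against shCtrl on probes 7650026 (0.29, adjusted p = 0.015) and 7200601 (0.25, adjusted p = 0.03). On its brighter probe (450253), PTK2 itself was lower with sh1319 than with sh1209 in Capan-1 (log2 difference -1.16, adjusted p = 6.2e-05). On the dimmer probe (2680750), also detected on all Capan-1 arrays, that difference was 0.0005 ± 0.16 and not past the threshold. Against shCtrl the dimmer probe had a log2 change of -0.46 with either hairpin (adjusted p of 0.08 and 0.09). The part of PTK2 in the members' differences between the hairpins was not tested. In MIA PaCa-2, 0 member probes differed between the hairpins at limma's adjusted threshold, beside 11.2% of all tested probes that were higher and 11.5% that were lower. At an unadjusted p under 0.05 the count was 0 in limma and 1 (MUC20) in the methods' t-test, and the shares over all probes do not refer to these unadjusted counts.

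**Figure D3:**
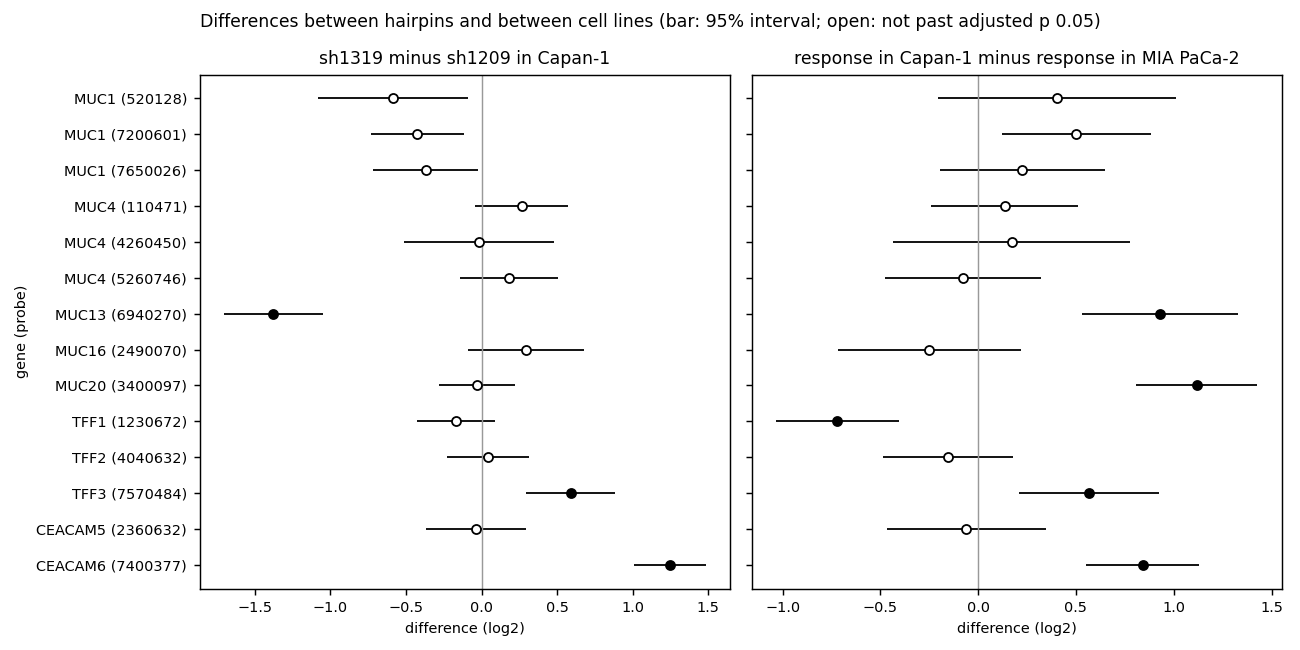
Log2 difference between sh1319 and sh1209 in Capan-1 (left) and between the mean knockdown change in Capan-1 and that in MIA PaCa-2 (right) for each tested member probe, with bars for the 95% interval from limma and filled points past an adjusted p of 0.05. MUC13 lies far to the left and CEACAM6 far to the right between hairpins, and MUC20 and TFF1 mark the ends between cell lines, where MIA PaCa-2 readings of both were at background.

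The knockdown response, the mean change over both hairpins, was compared between the cell lines. On its brighter probe (450253), PTK2 itself fell less in Capan-1, with a difference of 1.17 (log2, adjusted p = 0.00021, limma). On the dimmer probe (2680750) the difference was -0.47 and not past the threshold (adjusted p = 0.15). The part of PTK2 in the members' differences between the lines was not tested. In limma's fit the Capan-1 value minus the MIA PaCa-2 value was above 0 for MUC13, MUC20, TFF3 and CEACAM6 and below 0 for TFF1, which made 4 higher and 1 lower of 14 probes past the threshold, against 7.11% and 7.24% of all tested probes. None of these 5 probes was detected in any MIA PaCa-2 array, so each value sets the Capan-1 change against readings at background, where a fall such as that of TFF1 could not appear. The difference in response was 1.12 ± 0.14 (log2, adjusted p = 0.00031) for MUC20, 0.93 ± 0.18 (adjusted p = 0.0057) for MUC13 and 0.84 ± 0.13 (adjusted p = 0.0014) for CEACAM6. It was -0.72 ± 0.14 (adjusted p = 0.0064) for TFF1 and 0.57 ± 0.16 (adjusted p = 0.04) for TFF3. MUC1 did not pass the threshold on any of its probes. Without background correction it passed in limma on probe 7650026 (0.39, adjusted p = 0.009), which was detected on all 12 arrays. Probe 7200601, not detected in MIA PaCa-2, then also passed (0.47, adjusted p = 0.0015). TFF1 missed the threshold with median scaling (-0.45, adjusted p = 0.33). TFF3 missed it with median scaling (0.78, adjusted p = 0.053), with the replicate number as a paired block (0.57, adjusted p = 0.053) and without any 1 of the 6 Capan-1 arrays or any replicate 2 array of MIA PaCa-2 (0.42 to 0.60, adjusted p from 0.055 to 0.16).

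Median scaling moved more than the members. It shifted the median change of all tested probes with sh1319 in Capan-1 from 0.00 to 0.11, and the share of called probes that were higher from 50.6% to 85.3%. The share went from 48.4% to 81.7% with sh1209 in Capan-1, from 50.3% to 66.6% with sh1319 in MIA PaCa-2, from 49.4% to 65.3% between the hairpins in MIA PaCa-2 and from 49.6% to 68.3% for the difference in response. The rises of MUC20, MUC13, CEACAM6, TFF3 and MUC1 against shCtrl in Capan-1 passed the threshold under both scalings. Median scaling moved the Capan-1 calls toward rises, so it is not a strict check of these rises. The fall of TFF1 missed the threshold under it.

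The changes of genes that lie next to the members in the RefSeq order were set beside them in Capan-1. Along chromosome 21 the order is ABCG1, TFF3, TFF2, TFF1 and TMPRSS3. ABCG1, a lipid transporter beside TFF3, rose on 2 of 5 probes with sh1319 (log2 changes 0.99 and 0.62) and on 1 with sh1209 (0.42). TMPRSS3, a serine protease beside TFF1, rose on 2 of 4 probes with sh1209 (0.83 and 0.60) and on none with sh1319, while TFF1 fell with both. MUC20 and MUC4 are adjacent on chromosome 3, and MUC20 alone passed the threshold. HEG1, a mucin-like receptor that follows MUC13, rose with sh1209 (0.84, adjusted p = 0.0071) and not past the threshold with sh1319 (-0.19, adjusted p = 0.58), as MUC13 did. The other neighbors of MUC13 did not share this. ITGB5, on its other side, did not pass with sh1209 on any tested probe (-0.02, 0.08 and 0.11). With sh1319 it fell on probe 2490411 alone (-0.40, adjusted p = 0.036, limma). UMPS and SLC12A8, the next genes outward, did not pass with either hairpin. THBS3, a thrombospondin that follows MUC1, fell with sh1209 (-0.70, adjusted p = 0.0052), while MUC1 rose. On chromosome 19, CEACAM7 and CEACAM6 lie on either side of CEACAM5. CEACAM7 was not detected with shCtrl and was higher by at least 1.83-fold with sh1209 (adjusted p = 0.00018) and by at least 1.26-fold with sh1319 (adjusted p = 0.016). It was lower with sh1319 than with sh1209 by 0.54 on the log2 scale (log2 difference -0.54, adjusted p = 0.02). CEACAM6 had the opposite order of hairpins.

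**Figure D4:**
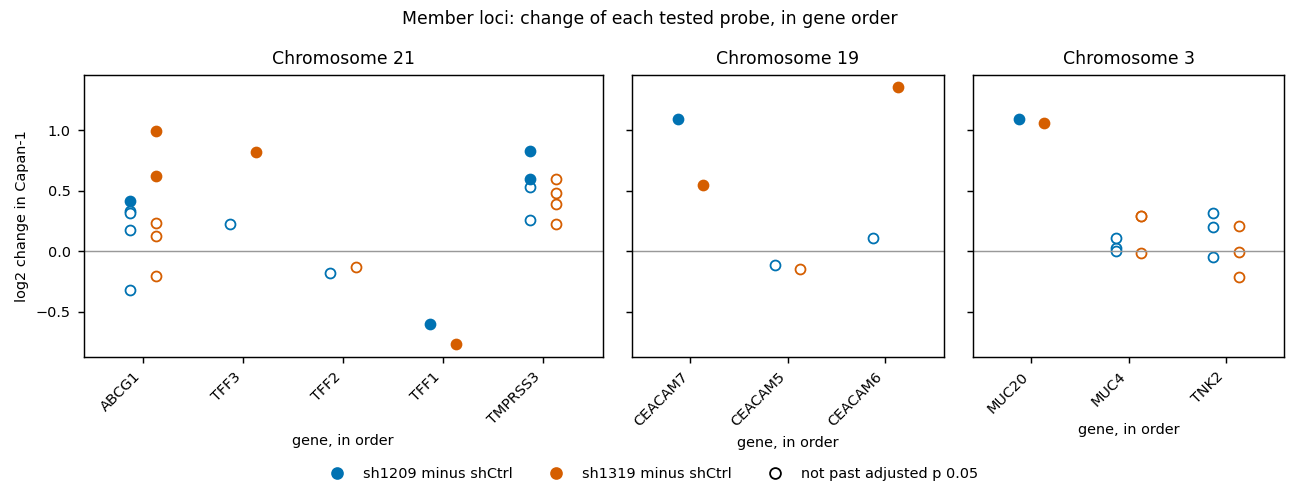
Log2 change in Capan-1 of every tested probe of the trefoil, CEACAM and MUC20-MUC4 genes and of tested neighbors, in gene order along 3 chromosomes, for sh1209 and sh1319 against shCtrl, with filled points past an adjusted p of 0.05. TFF3 lies above and TFF1 below 0, and CEACAM7 and CEACAM6 are high on either side of CEACAM5.

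Other genes of the same families and pathways were counted from fixed lists, and the shares of all tested probes given above are the background of these counts. Of 4 tested probes of other mucins, 1 fell with each hairpin in Capan-1. It was MUC5AC, the main secreted gastric mucin, with log2 changes of -1.10 (adjusted p = 0.00083, limma) and -1.02 (adjusted p = 0.0017). In MIA PaCa-2 the 1 that rose was EMCN, an endothelial sialomucin, which was not detected with shCtrl and was higher by at least 3.98-fold with sh1209 and by at least 1.56-fold with sh1319. Of 4 probes of other CEACAMs, CEACAM7 alone passed in Capan-1, and 0 passed in MIA PaCa-2 in limma. The median log2 change in Capan-1 was -0.16 and -0.08 for the other mucins and -0.08 and 0.04 for the other CEACAMs, with sh1209 and sh1319.

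The enzymes that build O-linked sugars on mucins had 24 tested probes. In Capan-1, 4 rose and 0 fell with sh1209, and 3 rose and 1 fell with sh1319. GALNT1, which adds the first sugar, rose in all 4 pairs, by 0.65 and 0.91 in Capan-1 and by 1.75 and 1.07 in MIA PaCa-2. GCNT3, a branching enzyme of mucin glycans, rose with sh1209 in Capan-1 (0.75, adjusted p = 0.011) and was lower with sh1319 than with sh1209 (-1.25, adjusted p = 0.00076). C1GALT1C1, the chaperone of the core 1 enzyme, rose with sh1319 in MIA PaCa-2 on 2 probes (1.28 and 1.08). The median log2 change of the 24 probes in Capan-1 was 0.13 with sh1209 and -0.22 with sh1319.

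Secretory and gastrointestinal products had 20 tested probes, of which 3 rose and 8 fell with sh1209 in Capan-1, and 3 rose and 6 fell with sh1319. Their median log2 change was -0.37 with sh1209 and 0.02 with sh1319. PGC, the gastric proenzyme pepsinogen C, fell by 1.90 and 1.40, and LYZ, lysozyme, fell by 1.83 and 1.53 on probe 4810162 and by 1.29 and 0.56 on probe 1690056, with sh1209 and sh1319. FCGBP, a mucus protein, rose by 2.68 on probe 130609 and by 1.50 on probe 130463 with sh1209. PIGR, the receptor that carries antibodies across epithelium, rose by 2.04 with sh1209 and by 0.65 with sh1319. Both genes were lower with sh1319 than with sh1209 (-2.52 and -1.61 on the FCGBP probes and -1.39 for PIGR). ANXA10, a gastric annexin, fell by 1.85 with sh1209 and fell by 1.37 with sh1319 in Capan-1. In MIA PaCa-2 it was not detected with shCtrl and was higher by at least 3.22-fold with sh1209 and by at least 35.6-fold with sh1319. Of the 20 probes, 19 were higher in Capan-1 than in MIA PaCa-2 with shCtrl, beside 19.6% of all tested probes. As with the members, a probe that passed the filter through Capan-1 could hardly be lower there. This count therefore describes the list and does not test a direction.

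Regulators of mucin and trefoil genes had 16 tested probes. With sh1209 in Capan-1, 3 rose and 1 fell, and with sh1319 2 rose and 1 fell, with median log2 changes of 0.13 and 0.12. SPDEF, a transcription factor of goblet cells, rose by 1.23 (adjusted p = 2.4e-05) and 1.24 (adjusted p = 5.1e-05), and FOXA2, a forkhead factor of foregut epithelium, fell by 1.14 (adjusted p = 0.00013) and 0.47 (adjusted p = 0.032). CDX2, an intestinal transcription factor, rose with sh1209 (1.29, adjusted p = 0.0059). EHF, an epithelial ETS factor, fell by 1.53 with sh1209 in MIA PaCa-2 and rose with it in Capan-1 (1.09, adjusted p = 0.0024). Binding partners and receptors had 14 tested probes, of which 1 rose and 1 fell with each hairpin in Capan-1 (median log2 changes -0.05 and 0.04). MSLN, mesothelin, the ligand of MUC16, fell by 1.16 with sh1209 (adjusted p = 0.00017) and was higher with sh1319 than with sh1209 by 1.29. ERBB2 rose by 0.52 (adjusted p = 0.041) and ERBB3 fell by 0.69 on 1 of 3 tested probes (adjusted p = 0.023) with sh1319. In MIA PaCa-2, 2 probes of this list rose and 1 fell with sh1209, and 1 rose and 3 fell with sh1319. LGALS3, a galectin that binds MUC1, fell by 0.93 and 0.88 there. EGFR rose by 1.40 with sh1319 on probe 1050671 and did not pass on probe 6330307. CXCR7 rose with sh1209 (0.91 and 0.67 on its probes) and fell by 0.44 on both with sh1319.

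The probes whose values followed the widest-ranging member of each family most closely were listed over the 12 arrays after each cell line was centered on its mean. Arrays of 1 group share their hairpin, so these correlations are a description. CEACAM6 was followed by HOPX (r = 0.995), PSCA (r = 0.992) and GPR116 (r = 0.980). Like CEACAM6 they rose with sh1319 in Capan-1, by 2.18, 1.28 and 1.22 on the log2 scale, and not past the threshold with sh1209 (0.16, 0.05 and 0.13). MUC1 probe 7650026 was followed by LOC387867 (r = 0.925), SLC23A2 (r = 0.925) and TM2D3 (r = 0.923), and TFF2 by LOC401980 (r = 0.908), TMEM150B (r = 0.898) and LOC643274 (r = 0.895). The probes that followed TFF2 did not pass the threshold with either hairpin in Capan-1, nor did TFF2.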

How the data were processed

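RNA of 12 cell line samples was hybridised to arrays read with GenomeStudio 2011.1, per the labels. The authors deposited linear probe intensity values, not normalized, and beside each a detection p-value. Of 47320 rows, 92 control probes were left out, and 28 columns held no values. The background was corrected with limma's nec function (normexp, offset 16, which understates the change of dim probes), followed by quantile normalization of log2 values. The test covered 24207 of 47228 probes, those detected (p under 0.05) on 2 or more of the 12 arrays. A linear model with a mean for each of the 6 groups (6 residual degrees of freedom) was fitted in limma 3.58.1 (R 4.3.3), with Benjamini-Hochberg adjustment over all tested probes within each of 8 comparisons and a threshold of 0.05. The methods name no test for the arrays, and the t-test they use elsewhere was run as an alternative.

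Groups came from the labels of the samples. The members and the gene lists were chosen with earlier results of these data known. Besides the members and PTK2, at most 3 genes per list and comparison were named, those with the largest change past the threshold, and 3 probes most like the widest-ranging probe of each family. Chromosome neighbors were named after their values were seen. Gene order and promoters came from RefSeq on GRCh38.p14, in which all 10 members matched. In a simulation that changed 200 of 24207 probes by 1.5 (log2), the fit recovered 94.5% for sh1319 in Capan-1, with 4.55% false calls. Smaller changes were not simulated, and the simulated noise was independent between arrays. The number of arrays, 2 per group, limits the precision. Alternatives were median scaling, no background correction, a detection p of 0.01 or no filter, the replicate number as a block, array weights, each array left out and the methods' t-test.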

Additional observations from a re-analysis of the deposited data

Results flagged for a closer look

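In 5 member genes the mean change over both hairpins differed between Capan-1 and MIA PaCa-2 by limma's interaction test. The differences on the log2 scale, Capan-1 minus MIA PaCa-2, were 0.93 for MUC13 (adjusted p = 0.0057), 1.12 for MUC20 (adjusted p = 0.00031), -0.72 for TFF1 (adjusted p = 0.0064), 0.57 for TFF3 (adjusted p = 0.04) and 0.84 for CEACAM6 (adjusted p = 0.0014). All 5 probes were detected on all 6 Capan-1 arrays and on no MIA PaCa-2 array, so each value sets the Capan-1 change against readings at background. For MUC13 and CEACAM6 the Capan-1 mean joins hairpins that differed from each other.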

How the results depend on the processing

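Of 2000 recomputed differences of single member probes, 1964 kept their direction and side of the threshold or stayed uncalled, 26 fell short of it, 10 newly passed and 0 reversed while called. All calls of MUC13, MUC20 and CEACAM6 held under every alternative with limma. Leaving out 1 array at a time, the count of member probes past the threshold ranged from 0 to 1 with either hairpin in MIA PaCa-2, from 3 to 6 for sh1209 in Capan-1, from 2 to 3 between the hairpins in Capan-1 and from 4 to 5 for the difference in response, and was 4 of 4 for sh1319 in Capan-1 and 11 of 11 between the lines. Without background correction 6 probes differed between the hairpins in Capan-1 in place of 3, and with median scaling 3 in place of 5 differed in response. By the methods' t-test at an unadjusted p under 0.05, 0 member probes passed with sh1209, 1 with sh1319 and 1 between the hairpins in MIA PaCa-2. In Capan-1 the same counts were 5, 6 and 3. After Benjamini-Hochberg adjustment 0 passed with sh1209, with sh1319 and between the hairpins in either line. That t-test estimates the spread from 4 arrays alone and called 0 to 4 probes of 24207 in the hairpin comparisons. Deviations of same-numbered arrays correlated at -0.06 to 0.16 after normalization. Normalization removes shifts shared by a whole array, so this does not settle whether replicate numbers pair the samples. Before it, replicate 2 had the higher median intensity in every group. With the replicate block in limma 1 member call was lost, TFF3 in the difference in response (0.57, adjusted p = 0.053). Over all tested probes, median scaling gave 2243 calls in place of 4365 (sh1209) and 3846 in place of 5887 (sh1319) in MIA PaCa-2, 2459 in place of 4074 with sh1209 in Capan-1, 3477 in place of 5478 and 1217 in place of 2730 between the hairpins in MIA PaCa-2 and Capan-1, and 1834 in place of 3475 in response. Leaving out 1 Capan-1 array gave as few as 2170 calls with sh1209, 1742 in place of 3322 with sh1319, 1281 between the hairpins and 2212 in response. The cause of these changes was not tested. Probes at background, which most members were in MIA PaCa-2, cannot show a fall.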
